A study of Mus musculus with 2 samples.

Results

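The data described here are the unique molecular identifier (UMI) counts of 10 immunoglobulin genes in 2 single-cell RNA libraries of colonic polyp-infiltrating cells. The genes are the kappa constant gene Igkc, the lambda constant gene Iglc2, the heavy-chain constant genes Ighm, Igha, Ighg1, Ighg2b, Ighg2c and Ighg3, the J chain gene Jchain, and Igkv1-110, the kappa variable gene with the most UMIs. They are 10 of the 32285 genes in the files. They were picked for how their UMIs fell over barcodes and libraries, so their levels are a description and carry no test.

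The study compared wild-type mice (WT) with Clec7a-/- mice, which lack Dectin-1, a receptor for fungal and bacterial β-glucans, from the germline. Both groups were C57BL6/J mice, 26 weeks old, injected with azoxymethane (AOM), a colon carcinogen, and then put through 3 rounds of 1% dextran sodium sulfate (DSS) in the drinking water; polyps were taken 16 weeks after AOM. CD11b+ and CD11c+ cells, the gate for myeloid cells, were sorted from the polyps, pooled over 5 WT and 4 Clec7a-/- mice, and made into 1 library per genotype on a microwell platform that captures poly(A) RNA. Neither genotype had a second library, so genotype, library and pool cannot be told apart. Intervals are at the 95% level and cover counting error only, and fewer cells of a type and less RNA per cell cannot be told apart in levels summed over a library.

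Antibodies are built from pairs of identical heavy and light chains. The light chain carries either a kappa or a lambda constant region, and the heavy-chain constant gene sets the isotype: Ighm and Ighd are used by resting B cells, and Igha or an Ighg gene after class switching. Plasma cells transcribe these genes at very high levels, and in the gut most of them make IgA that the J chain joins into dimers for transport across the epithelium. Each B cell assembles its light-chain variable region by joining a V segment to a J segment, so that a cell and its descendants carry the same V segment.

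In the GRCm38 assembly, Igkc lay at chr6:70726435-70726966 on the plus strand, where it overlaps the non-coding RNA gene Gm30211, which had 1 UMI over all barcodes rich in immunoglobulin. The heavy-chain genes stood in a row on the minus strand of chromosome 12: Igha at chr12:113254830-113260236, Ighg2c at chr12:113285325-113288932, Ighg2b at chr12:113302965-113307933, Ighg1 at chr12:113325240-113330523, Ighg3 at chr12:113356224-113361232 and Ighm at chr12:113418558-113422730. Iglc2 was at chr16:19198396-19200351 and Jchain at chr5:88519809-88527891, both on the minus strand. Igkv1-110 was at chr6:68270485-68271267 on the plus strand, upstream of Igkc in the kappa locus.

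Igkv1-110 has close copies, and its reads can be told from theirs at few bases. Over its coding sequence it was 97.2% identical to Igkv1-117 (349 of 359 bases) and 94.2% to Igkv1-122, against a median of 62.3% over the 99 other kappa variable genes compared. The last 300 coding bases are shown for Igkv1-110 (chr6:68270968-68271267, plus strand) and Igkv1-117 (chr6:68121528-68121827, plus strand), with the 10 bases that differ between them in capitals.
Igkv1-110: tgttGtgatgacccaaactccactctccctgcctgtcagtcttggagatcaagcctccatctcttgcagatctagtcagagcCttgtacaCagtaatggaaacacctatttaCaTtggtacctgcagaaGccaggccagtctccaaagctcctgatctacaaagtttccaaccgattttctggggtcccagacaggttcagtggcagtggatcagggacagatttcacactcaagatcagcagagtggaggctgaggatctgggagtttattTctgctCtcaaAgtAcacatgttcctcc
Igkv1-117: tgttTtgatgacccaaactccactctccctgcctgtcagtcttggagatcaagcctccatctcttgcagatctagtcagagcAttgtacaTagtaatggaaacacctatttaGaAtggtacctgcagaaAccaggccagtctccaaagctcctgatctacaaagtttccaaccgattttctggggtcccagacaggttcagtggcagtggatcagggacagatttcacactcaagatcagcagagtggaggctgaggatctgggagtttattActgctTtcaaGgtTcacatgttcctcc
Igkv1-117, Igkv1-122 and Igkv1-88, the 3 closest genes, had 0 UMIs in both libraries. How reads that match several of these genes were counted is not given in the sources used here, so the split between near-copies is uncertain.

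For the kappa variable genes that led single barcodes, the end that joins the J segment is shown. The last 60 coding bases are given for Igkv1-110 and Igkv5-43 from the Clec7a-/- library and Igkv12-41, Igkv2-109 and Igkv4-63 from the WT library. Capitals mark the germline bases after the last in-frame cysteine codon, which open the third hypervariable loop. They lie at chr6:68271208-68271267, plus strand, chr6:69823355-69823414, minus strand, chr6:69858420-69858479, minus strand, chr6:68303099-68303158, plus strand, and chr6:69377944-69378003, minus strand.
Igkv1-110: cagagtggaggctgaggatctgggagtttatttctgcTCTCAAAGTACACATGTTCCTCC
Igkv5-43: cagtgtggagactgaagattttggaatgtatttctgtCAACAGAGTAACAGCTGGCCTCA
Igkv12-41: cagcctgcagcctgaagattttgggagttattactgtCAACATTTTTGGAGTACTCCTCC
Igkv2-109: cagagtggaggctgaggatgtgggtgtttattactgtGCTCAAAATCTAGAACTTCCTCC
Igkv4-63: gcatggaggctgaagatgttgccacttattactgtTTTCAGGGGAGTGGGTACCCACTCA
Over whole coding sequences Igkv1-110 was 77.1% identical to Igkv2-109, 66.7% to Igkv5-43, 62.3% to Igkv12-41 and 58.9% to Igkv4-63.

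The WT library held 3467 barcodes with 15869215 UMIs (median 3246 per barcode), against 3080 barcodes with 11808230 UMIs (median 2696.5) for Clec7a-/-. The cell filter of the study (200 to 4000 genes, at most 5% mitochondrial UMIs) kept 2696 and 1999 of them, and the mitochondrial limit was passed by 729 WT and 1057 Clec7a-/- barcodes. The libraries shared 17 barcode sequences, none of them rich in immunoglobulin. The row for Clec7a itself was not analysed here, so the deletion was not checked in these counts. Levels, written CPM, are the UMIs of a gene for every 1000000 UMIs in the library, with all barcodes summed unless stated otherwise.

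The immunoglobulin UMIs of both libraries sat in a handful of barcodes. The 10 genes together had 12528 UMIs in WT and 15546 in Clec7a-/-, and 3 barcodes in each library held more than 50% of them (54.4% and 54.1%). The single highest barcode held 25.1% in WT and 23.0% in Clec7a-/-. To reach 90% took 7 barcodes in WT and 12 in Clec7a-/-. At least 1 UMI of the 10 genes was found in 478 WT and 526 Clec7a-/- barcodes, so most of the barcodes with any immunoglobulin RNA added little to the sum.

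**Figure D1:**
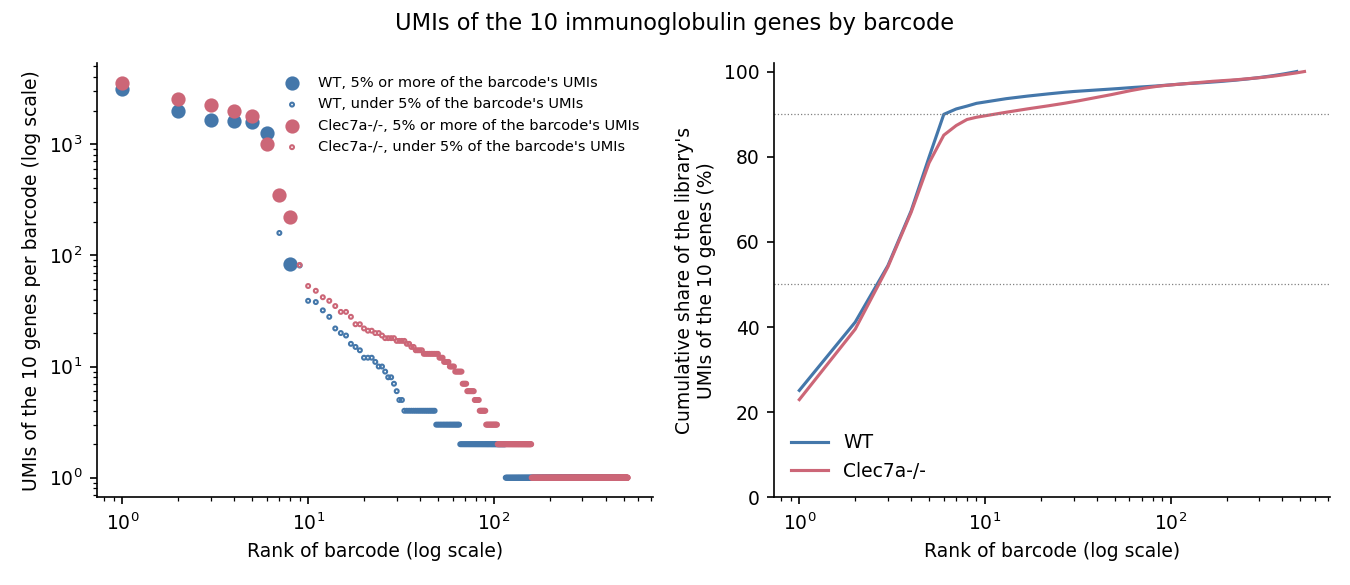
Left, summed UMIs of the 10 immunoglobulin genes per barcode against the rank of the barcode, both on log axes, with filled points at or above 5% of the barcode's UMIs. Right, the cumulative share of the library's UMIs of these genes in percent against rank, with dotted lines at 50% and 90%: both libraries pass 50% at 3 barcodes, and 90% at 7 in WT and 12 in Clec7a-/-.

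A barcode was called immunoglobulin-high when the 10 genes made up at least 5% of its UMIs. This held for 7 of 3467 WT barcodes (0.202%, 0.0812 to 0.416%) and 8 of 3080 Clec7a-/- barcodes (0.260%, 0.112 to 0.511%). The log2 ratio of the shares, Clec7a-/- over WT, was 0.36 (-1.29 to 2.06), an interval that spans both directions. These barcodes held 90.6% of the members' UMIs in WT and 88.7% in Clec7a-/-. The limit fell in a gap: the lowest barcode inside it had 16.5% in WT and 38.3% in Clec7a-/-, and the highest outside had 3.16% in WT (159 of 5038 UMIs) and 3.04% in Clec7a-/- (42 of 1381 UMIs). Barcodes with 1 to 5% numbered 6 in WT and 35 in Clec7a-/-. The sequences of any pair of immunoglobulin-high barcodes differed at 13 to 21 of 24 bases in WT and 6 to 22 in Clec7a-/-, and no barcode of the library lay closer to one of them than 3 bases in WT and 4 in Clec7a-/-.

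Most immunoglobulin-high barcodes carried RNA of antibody-secreting cells and little of the myeloid RNA the gate selects. Of the 15, 12 had at least 2 genes of the plasma cell list, barcode WT 7 had 1 gene, and WT 4 and Clec7a-/- barcode 8 had 0. The share of other barcodes with at least 2 was not counted, so this count alone does not set the 15 apart. Some list genes were common in the others, such as Sec11c at 170 CPM and Xbp1 at 154 CPM of non-immunoglobulin UMIs. Mzb1, a chaperone of antibody assembly, had a UMI in 12 of these 15 barcodes and in 0.521% of the 6532 others. Itgam, which encodes CD11b, had a UMI in 1 of 15 against 45.0% of the others, and Itgax, which encodes CD11c, in 1 of 15 against 58.8%. Both were barcode WT 7, which clustered with neutrophil-like cells. Ptprc, the pan-leukocyte marker CD45, was found in 5 of 15 against 61.9%, and Lyz2, the myeloid lysozyme gene, in 6 of 15 (10 UMIs in all) against 72.9%. The immunoglobulin-high barcodes had 510 to 11980 UMIs in WT (median 2778) and 575 to 7777 in Clec7a-/- (median 3713). Outside immunoglobulin genes they had only 254 to 8770 UMIs, and the shares of barcodes with a UMI were not matched for this depth. Scrublet, a doublet caller, marked 2 WT and 8 Clec7a-/- cells of those kept, too few to serve as a check, and no doublets were removed.

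All 15 genes of the plasma cell list had a UMI in the immunoglobulin-high barcodes, and for 13 the interval of the log2 ratio over the other barcodes lay above 0, with a median ratio of 4.39 in CPM of non-immunoglobulin UMIs. Over all 18172 genes outside the immunoglobulin genes with a UMI in either set of barcodes, 3.98% had an interval above 0 and 2.52% one below 0. The share of them with a UMI in the immunoglobulin-high barcodes is not given here. Counts of list genes with a UMI, here and below, therefore have no background. None of these genes was used to choose the barcodes. Mzb1 stood at 6526 CPM against 1.77 CPM (log2 11.83, 11.38 to 12.33). Xbp1, the transcription factor of the secretory program, had a ratio of 4.39 (4.07 to 4.69), and Txndc5, a disulfide isomerase of the endoplasmic reticulum, 5.05 (4.58 to 5.46). Derl3, a factor in the breakdown of misfolded proteins of the endoplasmic reticulum, had a ratio of 9.37 (8.38 to 10.29). Sdc1 (CD138), a surface marker of plasma cells, had 7 UMIs and a ratio of 1.37 (-0.04 to 2.32), and Prdm1, the regulator of plasma cell fate, 1 UMI and 0.05 (-5.84 to 1.95), and other cells of the gate also held both. The ratios pool barcodes of both libraries, and 86 of the 180 Mzb1 UMIs came from 1 barcode. That barcode, WT 1, had a UMI of 14 of the 15 genes and the most non-immunoglobulin UMIs (8770). Some of the 13 rested on few UMIs, such as Tnfrsf17 (4 in 2 barcodes) and Irf4 (6 in 3). The intervals treat UMIs of 1 barcode as independent.

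Of the 15 genes of the B cell list, 7 had a UMI in these barcodes and 4 stood above the others. Cd79a, a signalling chain of the B cell receptor, had 50 UMIs (log2 7.41, 6.93 to 7.83), and Vpreb3 (10.17), Fcrla (5.85) and Cd79b (3.48) also had intervals above 0. Ms4a1 (CD20), a surface marker of B cells, had 1 UMI and a ratio of 4.87 with an interval from -1.04 to 6.84. Among genes outside the immunoglobulin loci with at least 20 UMIs in these barcodes, the 10 with the highest ratios were Ly6k (14.06), Mzb1, Cd79a, Ly6a (5.08), Txndc5, Prdx4 (4.98), Shmt2 (4.57), Xbp1, Sec11c (4.06) and Krtcap2 (3.96). Sec11c is a subunit of the signal peptidase and Prdx4 a peroxidase of the endoplasmic reticulum. Among survival factors and homing receptors of antibody-secreting cells, 6 of 11 genes had a UMI, 3 stood above the other barcodes and 1, Cxcr4, below (-2.05, -4.10 to -0.87). Of 8 receptors that bind immunoglobulin, 2 had a UMI, none stood above and 2 below, Fcer1g (-3.44, -5.20 to -2.35) and Fcgr3, with 0 UMIs.

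Over whole libraries, the 10 genes summed to 789 CPM (776 to 803) in WT and 1317 CPM (1296 to 1337) in Clec7a-/-, a log2 ratio of 0.74 (0.70 to 0.77). The intervals treat UMIs as independent, although a few barcodes supply most of them, and are too narrow for that reason. Of the 8 members with at least 100 UMIs in both libraries together, 4 had a log2 ratio above 1 and 2 below -1. Over all 9497 genes with as many UMIs, 2.54% were above 1 and 2.1% below -1 (4.63% in both directions), and the median ratio was 0.10. The members were chosen on this contrast, and nothing is read from these counts.

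Igkc, the kappa light chain, had the most UMIs. It had 7165 in WT and 9989 in Clec7a-/-, or 452 CPM (441 to 462) and 846 CPM (829 to 863), a log2 ratio of 0.91 (0.86 to 0.95). In the 7 immunoglobulin-high WT barcodes, ranked by the summed UMIs of the 10 genes, Igkc had 2050, 1144, 1066, 1500, 0, 783 and 60 UMIs. The 8 Clec7a-/- barcodes had 1901, 1603, 1298, 1787, 1152, 704, 248 and 217. The 2 sets of values overlapped over almost their whole range, and the WT barcode without Igkc, barcode 5 in rank, was the one that used lambda. Without the 5 highest barcodes of each library the log2 ratio was 2.28. That step left unlike remainders: Clec7a-/- kept immunoglobulin-high barcodes with 704, 248 and 217 Igkc UMIs, and WT kept those with 60 and 0.

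Lambda RNA came from that WT barcode. Iglc2 had 758 UMIs in WT, 729 of them in barcode 5, and 31 in Clec7a-/-, spread over 19 barcodes. The log2 ratio was -4.16 (-4.75 to -3.67), and turned to 0.27 without the barcode of each library that ranked first for Iglc2, which left 29 and 26 UMIs. The same barcode held 93 of the 108 WT UMIs of Iglc1, while Iglc3, 96.2% identical to Iglc2 over the coding sequence, had 8 UMIs in each library. Kappa made up 89.1% of the light-chain constant UMIs in WT and 99.5% in Clec7a-/-.

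**Figure D2:**
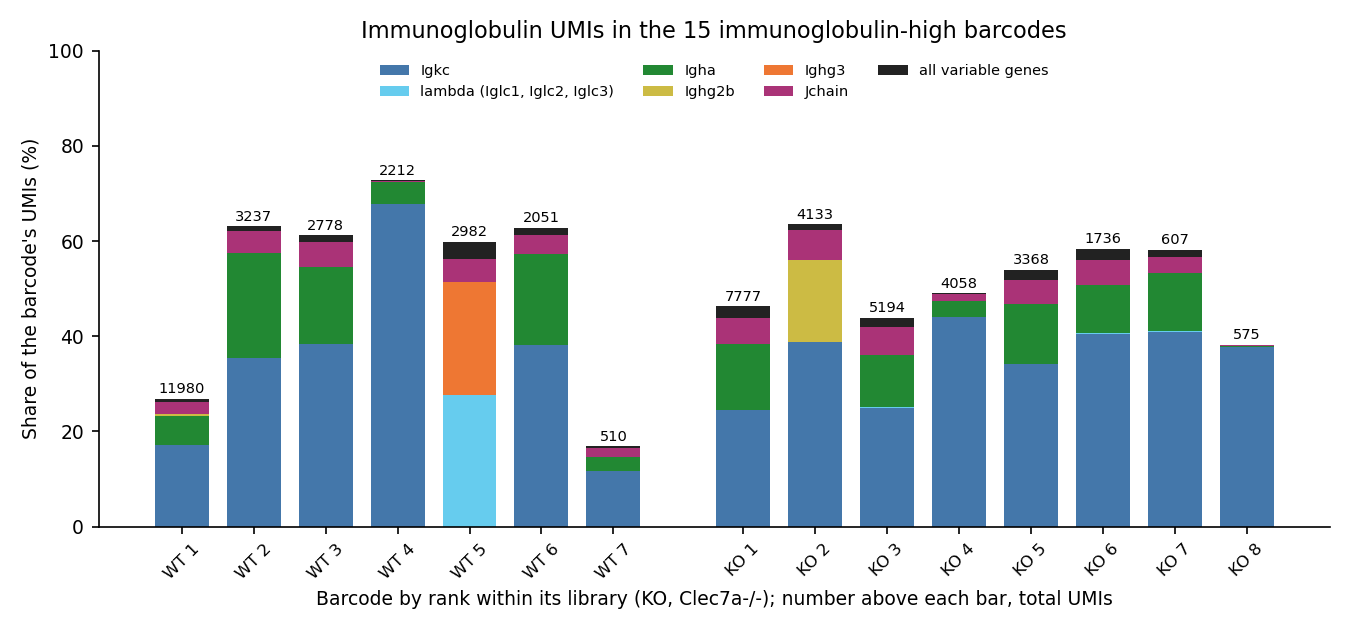
Share of each barcode's UMIs, in percent, taken by light-chain constant, heavy-chain constant, Jchain and variable genes in the 7 WT and 8 Clec7a-/- (KO) immunoglobulin-high barcodes, with the barcode's total UMIs above each bar. WT 5 has lambda and Ighg3 in place of Igkc and Igha, KO 2 has Ighg2b, and WT 4, KO 4 and KO 8 have little heavy-chain or Jchain RNA beside their Igkc.

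Igha, the IgA heavy chain, led most of these barcodes in both libraries. It had 2647 UMIs in WT and 2617 in Clec7a-/- (167 and 222 CPM, log2 0.41, 0.33 to 0.49), and the ratio was 0.12 without the highest barcode of each library. The WT barcodes held 744, 717, 452, 100, 2, 390 and 15 UMIs in rank order. The Clec7a-/- barcodes held 1079, 1, 571, 137, 427, 174, 74 and 1. By the heavy-chain gene with the most UMIs, 6 of 7 WT and 7 of 8 Clec7a-/- barcodes were Igha barcodes, and the leading gene held 93.7% of the heavy-chain UMIs in WT barcode 1 and 98.6 to 100% in the others. Clec7a-/- barcode 8 rested on 1 heavy-chain UMI.

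IgG RNA was of another subclass in each library, and each time from 1 barcode. Ighg3 had 740 UMIs in WT, 707 of them in barcode 5, beside 2 Igha UMIs, and 2 UMIs in Clec7a-/- (log2 -7.78, -11.15 to -6.25). Without the highest barcode 33 Ighg3 UMIs were left in WT and 0 in Clec7a-/-. Ighg2b had 64 UMIs in WT, 50 of them in barcode 1 beside 744 of Igha, and 723 in Clec7a-/-, 711 of them in barcode 2 (log2 3.91, 3.55 to 4.32). That ratio was 0.21 without the highest barcode of each library. Ighg1, 77.0% identical to Ighg2b in coding sequence, had 7 UMIs in WT, 6 of them in 1 barcode outside the immunoglobulin-high set, and 0 in Clec7a-/-. A floor of 3 UMIs in Clec7a-/- would be 1.74-fold lower than WT, and the interval of the log2 ratio reached up to -0.10. Ighg2c, 87.6% identical to Ighg2b, had 1 UMI in WT and 10 in Clec7a-/- (log2 3.23, 0.94 to 9.19).

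In all barcodes together, Igha made up 70.8% (69.3 to 72.3%) of 3738 heavy-chain UMIs in WT and 67.7% (66.2 to 69.2%) of 3866 in Clec7a-/-, and the IgG genes 21.7% and 19.0%. Within the immunoglobulin-high barcodes the shares were 76.1% Igha, 22.2% Ighg3 and 1.67% Ighg2b in WT, and 77.5% Igha and 22.4% Ighg2b in Clec7a-/-. The remaining barcodes had another make-up. Ighm was 48.6% of their 558 heavy-chain UMIs in WT and 64.6% of 687 in Clec7a-/-, and Igha 40.7% and 22.3%. Ighe had 0 UMIs in both libraries.

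Ighm, the constant gene of IgM, followed another distribution than the rest. It had 271 UMIs in WT and 444 in Clec7a-/- (17.1 and 37.6 CPM, log2 1.14, 0.92 to 1.36), but 0 in all 15 immunoglobulin-high barcodes. No barcode had more than 24 Ighm UMIs in WT or 19 in Clec7a-/-, and 27 and 23 barcodes were needed for 50% of them, 118 in each library for 90%. Under the cell filter of the study the log2 ratio was 0.34. Ighd, spliced from the same primary transcript as Ighm in B cells, had 8 UMIs in WT and 70 in Clec7a-/- (log2 3.48, 2.50 to 4.82).

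Jchain, whose product links IgA dimers, went with Igha and with IgG. It had 875 UMIs in WT and 1346 in Clec7a-/- (55.1 and 114 CPM, log2 1.05, 0.92 to 1.17). In rank order the WT barcodes held 303, 144, 144, 7, 147, 84 and 9 UMIs, and the Clec7a-/- barcodes 417, 256, 302, 61, 166, 91, 21 and 2. The Ighg3 barcode in WT (147) and the Ighg2b barcode in Clec7a-/- (256) lay inside the range of the Igha barcodes of their own library.

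The barcodes with few Jchain UMIs for their Igkc were the 3 past the mitochondrial limit. WT barcode 4 (13.4% mitochondrial UMIs) had 1500 Igkc, 100 Igha and 7 Jchain UMIs, a ratio of heavy-chain to light-chain UMIs of 0.067. Clec7a-/- barcode 4 (15.9%) had 1787, 137 and 61, a ratio of 0.077. Clec7a-/- barcode 8 (41.6%) had 217, 1 and 2, a ratio of 0.0046. The other barcodes had ratios of 0.25 to 0.86 in WT and 0.25 to 0.57 in Clec7a-/-, so that no barcode past the limit reached them. Variable-gene RNA followed the same split, with at most 1 light-chain variable UMI of any one gene in the barcodes past the limit, and 2.92 to 12.8 variable UMIs per 100 light-chain UMIs in the other WT barcodes and 3.24 to 10.3 in the other Clec7a-/- barcodes.

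Igkv1-110 was the most abundant variable gene of the Clec7a-/- library and had no UMI in WT. It had 384 UMIs in Clec7a-/- (32.5 CPM) and 0 in WT, where 3 UMIs would be 0.189 CPM. The Clec7a-/- level was 172-fold above that floor, and the interval of the log2 ratio began at 7.12. It made up 87.7% of the 438 Igkv UMIs of that library and 78.4% of its 490 variable-gene UMIs. Of the 384 UMIs, 378 lay in 6 immunoglobulin-high barcodes. Clec7a-/- barcodes 1, 3, 5, 6 and 7 had 167, 98, 65, 38 and 9 UMIs, or 8.78, 7.55, 5.64, 5.40 and 3.63 per 100 Igkc UMIs, and it was their leading variable gene. Barcode 4, past the mitochondrial limit, had 1 UMI beside 1787 Igkc UMIs, or 0.056 per 100.

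These 5 barcodes led by Igkv1-110 were all Igha barcodes, and held 53.1% of the Igkc, 88.8% of the Igha and 74.1% of the Jchain UMIs of the Clec7a-/- library. The other Clec7a-/- barcode with a leading variable gene was the Ighg2b barcode, with 48 UMIs of Igkv5-43 and 4 of Ighv3-8. Counts per gene hold no junction sequence, so whether the 5 barcodes carry 1 rearrangement was not tested. Outside the immunoglobulin-high set, Igkv1-110 had 3 UMIs in a barcode of 23550 UMIs that also had 411 Lyz2, 54 Igkc, 13 Igha and 10 Jchain UMIs, and 1 UMI in 3 others.

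No variable gene led as many barcodes in WT. Igkv12-41 led barcodes 3 and 6 (36 and 28 UMIs), Igkv2-109 barcodes 2 and 7 (32 and 2), Igkv4-63 barcode 1 (48), and Iglv2 the lambda barcode 5 (89, beside 16 of Iglv1). Igkv12-41 made up 42.2% of the 154 Igkv UMIs. Of these genes, Igkv12-41 (65 UMIs), Igkv2-109 (36), Igkv4-63 (48) and Iglv2 (89) had 0 UMIs in Clec7a-/-, and Igkv5-43 (48 in Clec7a-/-) had 0 in WT. Iglv1 was found in both libraries (32 and 43 UMIs), with 27 of the Clec7a-/- UMIs in Igkv1-110 barcode 1. Heavy-chain variable genes were scarce, with 16 UMIs in WT, 11 of them Ighv1-82, and 7 in Clec7a-/-, 4 of Ighv3-8 and 3 of Ighv1-81. The study's methods name a 3' library kit, and how far this limits the counts of variable genes was not tested. Of 348 variable genes in the files, 15 had a UMI in WT and 11 in Clec7a-/-, and 93.5% and 96.9% of these UMIs lay in immunoglobulin-high barcodes.

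**Figure D3:**
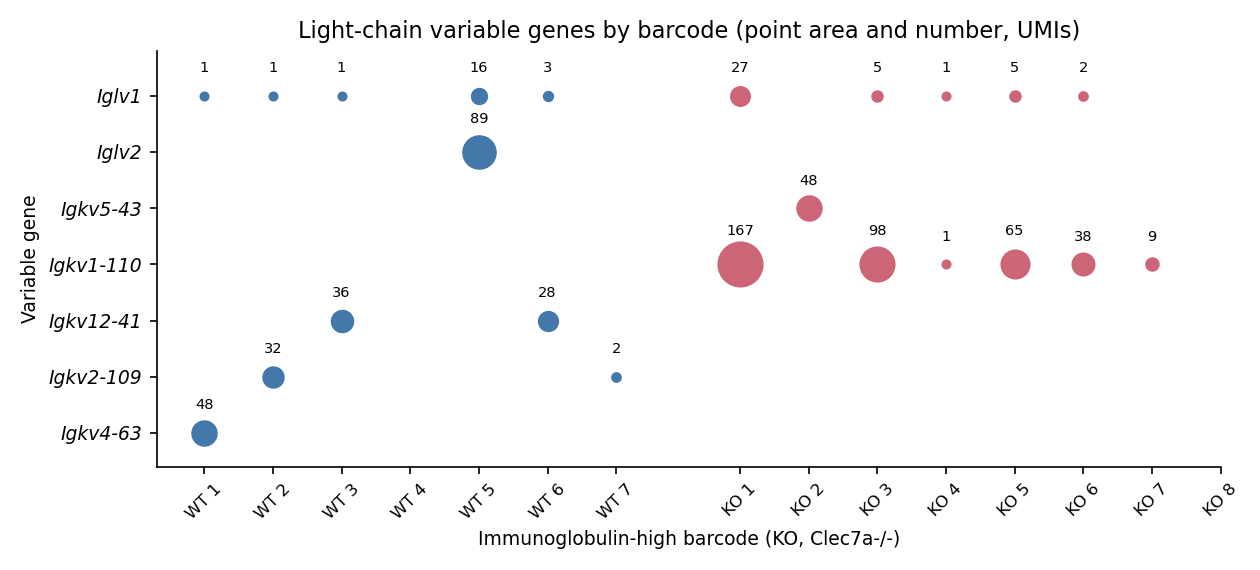
UMIs of the light-chain variable genes in each immunoglobulin-high barcode of WT and Clec7a-/- (KO), as point area and number. Igkv1-110 leads 5 of 8 Clec7a-/- barcodes with 9 to 167 UMIs and is at 0 in WT, where no gene leads more than 2 barcodes.

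Below the 5% limit, the members' UMIs were thin. Igkc had 562 UMIs over 243 WT barcodes, 203 of them with a single UMI, and 1079 over 337 Clec7a-/- barcodes, 242 of them with a single UMI. This was 7.84% and 10.8% of all Igkc UMIs. Igha had 227 and 153 UMIs, and Jchain 37 and 30. Ighg3 had 33 UMIs in WT, in 30 barcodes of which 29 had 1 UMI, and 2 in Clec7a-/-, where no immunoglobulin-high barcode used it. Ighg2b had 11 in WT and 12 in Clec7a-/-.

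The cells kept by the filter of the study were clustered without any immunoglobulin gene, and named from markers. In all cells other than the immunoglobulin-high ones and their cluster, Igkc stood at 29.8 CPM (26.8 to 33.1) in 2650 WT cells and 31.7 CPM (27.8 to 36) in 1962 Clec7a-/- cells. A UMI of Igkc was found in 6.91% and 9.07% of them, and in 1.94% and 2.70% once each cell was thinned to 1000 UMIs, which left out 174 WT and 298 Clec7a-/- cells. One WT cell, a transitional monocyte-like cell, held 108 of the 362 Igkc UMIs, and without it the WT level was 20.9 CPM (18.4 to 23.7).

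Among the named cell classes, the Igkc intervals of macrophage-like, dendritic cell-like and monocyte-like cells overlapped in both libraries. The level was 14.5 CPM in WT and 18.3 CPM in Clec7a-/- for macrophage-like cells, 18.5 and 23.6 for dendritic cell-like, 16.6 and 22.1 for monocyte-like, 30.4 and 76.5 for neutrophil-like, and 34.5 and 162 for T cell-like cells. In Clec7a-/- the intervals of neutrophil-like (53.0 to 107) and T cell-like cells (115 to 223) lay above that of macrophage-like cells (12.9 to 25.2). Depth differed between the classes, and the levels were not matched for it. Macrophage-like cells had a median of 7771 UMIs in WT and 6096.5 in Clec7a-/-. Neutrophil-like cells had 2712 and 1077.5, and T cell-like cells 2107 and 1552. An Igkc UMI was found in 10.6% and 11.6% of macrophage-like, 7.29% and 7.73% of neutrophil-like and 6.15% and 7.56% of T cell-like cells. How far depth set the levels was not tested. Single cells also weighed on the levels. Without the highest cell, WT dendritic cell-like cells had 10.4 CPM, and T cell-like cells 17.3 CPM in WT and 107 CPM in Clec7a-/-. Transitional monocyte-like cells had 90.3 CPM in WT, or 14.7 without the highest cell, and 27.0 CPM in Clec7a-/-. In immunoglobulin-high cells kept by the filter it was 216798 CPM in WT and 299802 CPM in Clec7a-/-.

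Ratios between members were compared with those of the immunoglobulin-high cells of the same library. Per 100 Igkc UMIs, the kept immunoglobulin-high cells of WT had 45.5 Igha (43.6 to 47.3), 13.9 Ighg3 (12.9 to 14.9), 16.3 Jchain (15.2 to 17.4) and 0 Ighm UMIs. The other WT cells had 29.3 Igha (24 to 35.4), 6.63 Ighg3 (4.25 to 9.86), 7.73 Jchain (5.14 to 11.2) and 40.9 Ighm (34.6 to 48.0). In Clec7a-/- the immunoglobulin-high cells had 33.8 Igha (32.4 to 35.2), 18.5 Jchain (17.5 to 19.6), 5.53 Igkv1-110 (4.98 to 6.12) and 0 Ighm, and the other cells 23.3 Igha (17.6 to 30.3), 5.08 Jchain (2.63 to 8.88), 1.27 Igkv1-110 (0.26 to 3.71) and 30.5 Ighm (23.9 to 38.4). All of these except Ighm were lower per Igkc UMI outside the kept immunoglobulin-high cells. With all immunoglobulin-high barcodes, including those past the mitochondrial limit, Igha was 36.6 (35.2 to 38.1) in WT and 27.7 (26.6 to 28.8) in Clec7a-/-, the latter inside the interval of the other cells, and Jchain 12.7 (11.8 to 13.6) and 14.8 (14 to 15.6). How much of this RNA was free in the suspension, read from the cells themselves or from doublets was not tested.

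**Figure D4:**
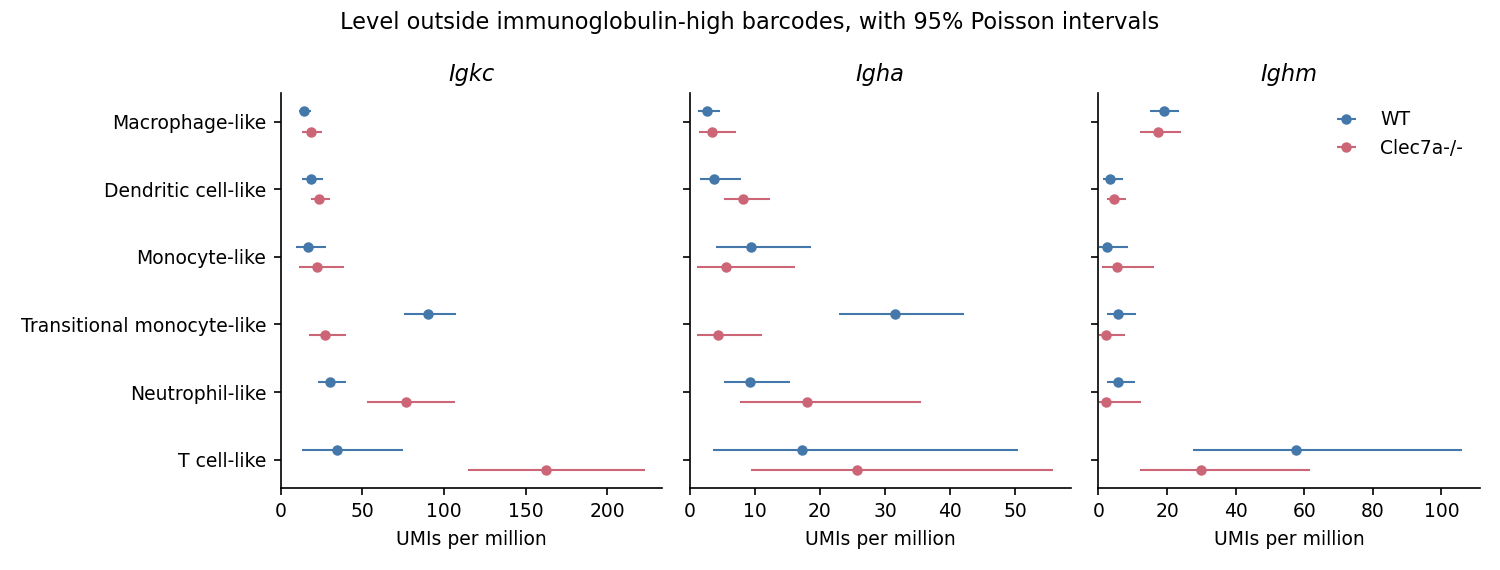
Level of Igkc, Igha and Ighm in CPM, with 95% Poisson intervals, in named cell classes outside the immunoglobulin-high barcodes, for WT and Clec7a-/-. Igkc lies between 14.5 and 162 CPM, and Ighm is higher in macrophage-like than in dendritic cell-like cells of both libraries. The levels are not matched for depth, which differs between the classes.

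Ighm differed between classes in both libraries. Macrophage-like cells had 19.0 CPM (15 to 23.6) in WT and 17.3 CPM (12.1 to 24.1) in Clec7a-/-, against 3.27 (1.2 to 7.11) and 4.64 (2.47 to 7.94) in dendritic cell-like cells. The highest macrophage-like cell had 10 Ighm UMIs in WT and 3 in Clec7a-/-, and without it the levels were 16.6 CPM (12.9 to 21.0) and 15.8 CPM (10.8 to 22.3). A UMI of Ighm was found in 51 of 529 WT and 28 of 302 Clec7a-/- macrophage-like cells, 36 and 23 of them with a single UMI. Of these cells, 9 in WT and 1 in Clec7a-/- also had Igkc, and 1 in each library had Cd79a. Among all macrophage-like cells, Igkc was found in 56 in WT and 35 in Clec7a-/-, and Cd79a in 11 and 5. Whether these UMIs fell together more or less often than by coincidence was not tested. T cell-like cells had 57.6 CPM in WT and 29.9 CPM in Clec7a-/-, from 10 and 7 UMIs in 6 cells each, and 28.8 and 21.4 CPM without the highest cell. After thinning, the shares with Ighm rested on few cells and their intervals overlapped: 1.59% (0.688 to 3.10%) of macrophage-like cells in WT and 1.76% (0.574 to 4.06%) in Clec7a-/-, against 0.300% and 0.569% of dendritic cell-like cells, where the highest bounds were 1.66% and 1.65%.

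In the clustering of kept cells above, no cluster was named B cell-like. A B cell-like cluster appeared when all 6547 barcodes were clustered with no filter on cells, a step added after the data had been seen. Beside 5 WT and 6 Clec7a-/- immunoglobulin-high barcodes it held 18 barcodes in WT (0.519%, 0.308 to 0.819%) and 66 in Clec7a-/- (2.14%, 1.66 to 2.72%). The filter of the study kept 5 and 15 of those 18 and 66, and 13 and 51 were over the mitochondrial limit. Ighm had a UMI in 13 and 48 of them and Igkc in 15 and 65, with both in 10 and 47. Ighm made up 32.9% of 161 heavy-chain UMIs in WT and 67.4% of 377 in Clec7a-/-, Igha 54.7% and 15.1%, and Jchain had 1 UMI in each library. The 88 Igha UMIs in WT came from 5 barcodes, the highest with 27. Of the 444 Ighm UMIs of the Clec7a-/- library, 254 lay in these 66 barcodes, and 53 of the 271 of WT in the 18. Cd79a was found in 14 and 55 of them.

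In the same clustering, Ighm made up 82.7% of 173 heavy-chain UMIs in WT macrophage-like barcodes and 83.4% of 151 in Clec7a-/-. The Ighm share varied over the other classes. It was 62.5% of 16 and 57.1% of 14 UMIs in T cell-like barcodes, and 59.3% of 59 and 35.2% of 88 in dendritic cell-like ones. Of the 11 WT dendritic cell-like barcodes with Ighm, 9 had 1 of their 35 Ighm UMIs each. Among cells kept by the filter the dendritic cell-like share was 31.6% of 19 and 31.7% of 41. Neutrophil-like barcodes had 26.9% of 26 and 50% of 2, and transitional monocyte-like ones 16.9% of 65 and 33.3% of 9. Monocyte-like barcodes had 9.09% of 11 and 50% of 6, and epithelial-like ones 0% of 11 and 68.2% of 22. Over all classes but the immunoglobulin-high and B cell-like barcodes, macrophage-like ones included, the Ighm share was 54.9% of 397 and 61.3% of 310. Macrophage-like barcodes held 143 of these 218 Ighm UMIs in WT and 126 of 190 in Clec7a-/-.

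**Figure D5:**
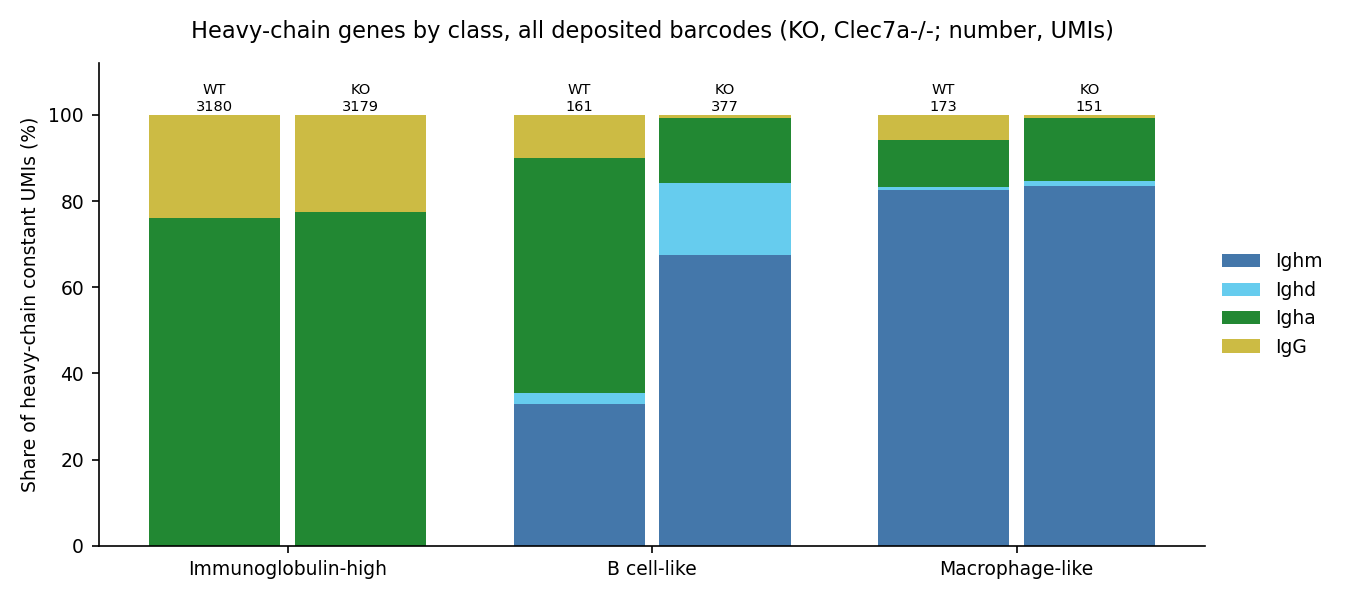
Make-up of the heavy-chain constant UMIs, in percent, by cell class and library (KO is Clec7a-/-), with all barcodes clustered and the number of UMIs above each bar. Ighm is at 0 in the immunoglobulin-high barcodes, and makes up 82.7% in WT and 83.4% in Clec7a-/- in macrophage-like barcodes, against 32.9% and 67.4% in B cell-like ones.

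Of 10 plasma cell genes with at least 100 UMIs, none had a log2 ratio past 1 in either direction, with a median of -0.03. The interval lay above 0 for 3 of them and below 0 for 4. The share of all genes with such an interval is not given here, so nothing is read from counts of intervals. Some were counted mostly outside the immunoglobulin-high barcodes, such as Xbp1 (4266 UMIs outside, 89 inside) and Sec11c (4699 and 78). Mzb1, with 49 UMIs outside and 180 inside, had a ratio of -0.72 (-1.15 to -0.31). Barcode WT 1 alone held 86 of the 158 WT UMIs of Mzb1. The Clec7a-/- library had 71, of which 21 lay in barcode 1. A ratio without these barcodes is not given here. Of 7 B cell genes 2 were above 1, where 2.54% of all genes were and 2.1% were below -1, among them Cd79a (1.23, 0.91 to 1.56), with a median of 0.71. Neither the 8 survival and homing genes (median 0.16) nor the 7 receptors of immunoglobulin (median -0.46) had one past 1, against a median of 0.10 over all genes. Intervals lay above 0 for 5 B cell, 4 survival and homing and 0 receptor genes, and below 0 for 1, 2 and 6.

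The genes whose level was most like that of Igkc over the 32 combinations of cluster and library were, outside the immunoglobulin genes, Cldn3 (Pearson r = 0.863 of log2 CPM), Krt19 (0.845), Slc18a2 (0.836), Esrp1 (0.829) and Stra6 (0.826). Cldn3, Krt19 and Esrp1 are epithelial genes and Slc18a2 is a monoamine transporter of mast cells. The points share their libraries. Without 1 unnamed cluster of 82 cells, which held 10 of the 11 kept immunoglobulin-high cells together with cells carrying mast cell and epithelial markers, r over the other 30 points was 0.471 for Cldn3, 0.446 for Krt19, 0.247 for Slc18a2, 0.141 for Esrp1 and 0.081 for Stra6. Among the members r was 0.923 for Igha, 0.864 for Jchain and 0.579 for Ighm, and 0.749, 0.498 and 0.349 without that cluster.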

How the data were processed

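UMI counts per gene and barcode of 2 libraries were used as the authors deposited them, with no further normalization. Per the labels and the study's methods, SeekOne MM was the kit used for both libraries. The submitters' processing notes name Cell Ranger 2.1.1 and mm10, with no role given, a label also names 10x Genomics, and the strand setting and the counting of reads that match several genes are not given in the sources used here. All columns had a sample.

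Levels were UMIs for every 1000000 (CPM), log2 ratios used a pseudocount of 0.5 UMI, and intervals were exact (Poisson, Clopper-Pearson and conditional binomial, 95%). UMIs are molecules after amplification, and intervals and the floor of 3 UMIs cover counting error only. No test across genes was possible with 1 library per genotype. Genes with at least 100 UMIs in both libraries together formed the background of ratios. Cells with 200 to 4000 genes and at most 5% mitochondrial UMIs (2696 WT, 1999 Clec7a-/-) were clustered with Seurat 5.3.0 (2000 variable features, 20 components, the lowest resolution that gave at least 15 clusters), leaving out immunoglobulin genes, and clusters were named from at least 3 markers. Shares of cells were also taken after thinning to 1000 UMIs (seed 1). Scrublet (scanpy 1.11.5) called too few doublets to be used, and none were removed.

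Positions and sequences came from GENCODE for GRCm38, with 32158 of 32285 gene IDs found, and identities from global alignment of coding sequences. Python 3.11.15, R 4.3.3 and edgeR 4.0.16 (TMM factors, as an alternative) were used. Scripts were tested on simulated data.

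The members, the lists and the 5% limit were chosen with earlier results of these data known. Besides the members, named genes were the other constant genes, the 3 variable genes of each chain with the most UMIs in each library, the 10 genes with the highest ratio in immunoglobulin-high barcodes among those with at least 20 UMIs, the 5 genes most like Igkc, and members of 4 fixed lists. The barcodes, cell classes and single genes of the lists given as examples were chosen after their values were seen, and 1 gene of the B cell list is not reported here. Alternatives were other cell filters, limits, thinning depths, pseudocounts and clusterings, TMM scaling, a mean over barcodes, and leaving out the highest barcodes. Clustering with no filter, ratios over all immunoglobulin-high barcodes and likeness to Igkc without the mixed cluster were added after seeing the data.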

Additional observations from a re-analysis of the deposited data

How the results depend on the processing

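No paired analysis was possible because each genotype had 1 library and no replicate, and leaving out a replicate was not possible for the same reason. The summed level of the 10 genes, with a log2 ratio of 0.74, kept its direction in every alternative run: 0.88 with the cell filter of the study, 0.68 with at most 10% mitochondrial UMIs, 0.62 with TMM factors, which shift all ratios alike, 0.57 as a mean over barcodes, 0.78 without the highest barcode of each library and 0.83 without the 5 highest. The Iglc2 ratio of -4.16 turned to 0.27 without the highest barcode and 0.25 without the 5 highest. Under the cell filter 5 Clec7a-/- barcodes held 90% of the UMIs in place of 12, and 5 were immunoglobulin-high in place of 8, against 15 at a limit of 2%. The Igha share of heavy-chain UMIs was 64.6% in WT and 55.2% in Clec7a-/- without the highest barcode, and 85.7% and 87.5% when each immunoglobulin-high barcode counted once.

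The share of other cells with an Igkc UMI rose with depth: in WT it was 4.0% thinned to 2000 UMIs and 6.91% unthinned, and in Clec7a-/- 1.78% thinned to 500, 4.73% to 2000, 9.07% unthinned and 3.62% when immunoglobulin genes took part in clustering. The Igkc level in other WT cells was 20.5 CPM without cells of 1% or more, 26.0 with at most 10% mitochondrial UMIs and 25.3 with no filter, an alternative added after seeing the data. In Clec7a-/- it was 54.3 CPM when immunoglobulin genes took part in clustering and 36.5 with no filter. The clusters left out were named anew in each clustering, so the set of other cells changed between these alternatives. The 54.3 CPM matches the level over all kept Clec7a-/- cells below the 5% limit, with the mixed cluster counted in. Its 32 Clec7a-/- cells below the limit, left out of the main value, held 173 Igkc UMIs. The causes of the other shifts were not tested. Of 77 alternatives for single genes over libraries, 54 stayed inside the counting interval, 21 left it and 2 turned, and of 221 for single genes in other cells 194 stayed and 27 left it. The main results were the summed level, barcode counts and shares, Igha shares and the Igkc values in other cells. Of their 63 alternatives, 39 stayed inside the interval, or a set range for counts, 24 left it and 0 turned. A mean over barcodes could not be given for Igkv1-110 and Ighg1, nor a ratio without the 5 highest barcodes for Ighg1. Without the cluster that held most immunoglobulin-high cells, left out after seeing the data, the correlation of Ighg2c with Igkc turned from 0.532 to -0.038.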
